A study of Rattus norvegicus with 16 samples.

Results

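Immediate early genes are the genes that neurons transcribe within minutes of strong activity, before any new protein is made, and a list of 33 of them was followed here in the CA1 field of the rat hippocampus. The list was taken by gene symbol from the study's isoform table, which held 32 of its members in 44 isoforms, out of 16602 gene symbols in 21698 isoforms. Ier2 was not analysed here. By role, 8 of the members measured encode bZIP factors (Fos, Fosb, Fosl2, Jun, Junb, Atf3, Maff and Crem), 4 encode zinc-finger factors of the Egr family and 3 encode orphan nuclear receptors of the Nr4a family. A further 3 are the factors Npas4, Klf2 and Klf4, 5 are effectors that act at or beyond the synapse (Arc, Nptx2, Inhba, Ptgs2 and Vgf), and 9 restrain growth or signalling or act in the stress response (Dusp1, Dusp5, Dusp6, Sik1, Trib1, Btg2, Gadd45b, Gadd45g and Ier5).

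The study asked what early-life seizures leave behind in CA1. On postnatal day 7, male Sprague-Dawley rats were injected under the skin with either saline or 2 mg/kg of the seizure-provoking glutamate agonist kainate, and CA1 was taken on postnatal day 14. Total RNA gave 8 libraries per group, numbered 1 to 8 in kainate and in control. Per the labels' protocols, dorsal hippocampal slices of 400 µm from every rat, kainate and control, recovered for 60 min in oxygenated artificial cerebrospinal fluid before CA1 was cut out, so each value describes tissue after slicing and recovery. Separate numbers in the sample titles are all that marks the libraries as different rats, so p-values measure the spread between these libraries.

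In neurons, calcium entry through glutamate receptors and voltage-gated channels activates kinases that phosphorylate CREB and the partners of SRF, which are already bound at these genes. The products are mostly transcription factors, such as the Fos and Jun proteins that pair to form AP-1, and phosphatases such as the Dusp family that switch the kinases off again. In the hippocampus, Fos, Arc and Egr1 serve as markers of recently active neurons.

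Promoters were read from the RefSeq annotation of the build GRCr8, which gave a window of 250 bases before to 50 after the gene start for 24 of the 32 members. Those for which no window was matched were Fos, Jun, Atf3, Arc, Egr3, Klf2, Nr4a3 and Trib1. Of the windows shown here, Junb, Btg2 and Klf4 belong to the closest pairs of genes described further on, and Egr1 and Nr4a1 were added after their values were seen because both follow Fos. They lie at chr19:40080876-40081175 on the plus strand (Junb), chr13:48087641-48087940 on the minus strand (Btg2), chr5:75078543-75078842 on the minus strand (Klf4), chr18:26736828-26737127 on the plus strand (Egr1) and chr7:134259888-134260187 on the plus strand (Nr4a1). Capitals mark the CREB half-site (TGACG or, on the other strand, CGTCA), the CArG box that SRF binds, and the Egr site (GCGNGGGCG on either strand).
Junb: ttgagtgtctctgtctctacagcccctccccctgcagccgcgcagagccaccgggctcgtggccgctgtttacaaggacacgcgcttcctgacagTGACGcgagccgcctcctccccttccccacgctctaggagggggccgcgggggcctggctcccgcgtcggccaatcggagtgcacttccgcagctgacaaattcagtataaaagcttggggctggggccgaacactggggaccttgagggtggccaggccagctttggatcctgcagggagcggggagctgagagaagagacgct
Btg2: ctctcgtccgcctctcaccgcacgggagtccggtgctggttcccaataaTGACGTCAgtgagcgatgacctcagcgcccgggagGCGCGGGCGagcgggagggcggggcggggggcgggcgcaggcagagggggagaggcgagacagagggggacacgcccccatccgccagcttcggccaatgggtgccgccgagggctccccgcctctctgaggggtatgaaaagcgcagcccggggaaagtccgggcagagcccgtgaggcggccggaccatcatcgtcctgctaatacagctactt
Klf4: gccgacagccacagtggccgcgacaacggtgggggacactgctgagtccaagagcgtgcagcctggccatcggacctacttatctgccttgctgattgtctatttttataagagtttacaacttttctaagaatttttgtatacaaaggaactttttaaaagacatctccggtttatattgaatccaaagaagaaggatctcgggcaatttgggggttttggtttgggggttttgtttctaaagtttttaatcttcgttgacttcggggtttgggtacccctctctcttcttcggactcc
Egr1: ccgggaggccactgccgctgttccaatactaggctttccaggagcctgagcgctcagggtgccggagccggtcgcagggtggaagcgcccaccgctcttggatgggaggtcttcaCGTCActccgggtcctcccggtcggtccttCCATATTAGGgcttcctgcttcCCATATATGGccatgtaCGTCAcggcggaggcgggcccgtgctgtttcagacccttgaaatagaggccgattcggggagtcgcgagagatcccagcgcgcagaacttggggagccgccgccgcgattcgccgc
Nr4a1: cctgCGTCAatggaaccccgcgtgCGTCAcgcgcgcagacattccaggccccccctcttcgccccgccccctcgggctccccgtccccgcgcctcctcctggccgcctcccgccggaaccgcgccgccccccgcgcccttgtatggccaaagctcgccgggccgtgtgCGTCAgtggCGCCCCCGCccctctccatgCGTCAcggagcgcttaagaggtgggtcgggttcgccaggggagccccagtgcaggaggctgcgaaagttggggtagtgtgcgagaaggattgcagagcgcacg

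The Egr1 window held 2 CArG boxes and 2 CREB half-sites, the Nr4a1 window 4 half-sites and 1 Egr site, and the Btg2 window the full palindrome TGACGTCA, which counts as a half-site on each strand. The Junb window held 1 half-site and the Klf4 window none of the motifs searched. Over the 24 member windows, the half-site was present in 15 (62.5%), against 21.2% of all 33469 windows of the same length. The palindrome was found in 4 (16.7% against 1.83%), the Egr site in 8 (33.3% against 4.98%) and the CArG box in 3 (12.5% against 1.64%). The AP-1 letters TGANTCA were in 0 of the 24 windows and in 7.33% of all windows. These are matches of letters on both strands and describe the windows only.

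No member passed the test between kainate and control rats 7 days after the injection. With limma's moderated test on gene totals, adjusted by Benjamini and Hochberg over all 16602 genes, 0 of 32 members had an adjusted p under 0.05, and 0% of all genes did. At an unadjusted p under 0.05 there were 2 members, Npas4 and Inhba, beside 230 of all genes (1.39%). The kainate and control libraries overlapped in all 32 members. Gene totals are the log2 of the summed isoform values, on the authors' deposited log2 scale, and differences are kainate minus control on that scale.

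Npas4, a neuronal bHLH factor induced by calcium entry that regulates inhibitory synapses, had the lowest p of the list. It ran from 9.79 to 10.33 in the kainate libraries with a median of 10.05, and from 9.52 to 10.11 in the controls with a median of 9.83. Kainate was the higher library in 7 of 8 same-numbered pairs, the exception being replicate 5, although the groups overlapped. The means were 10.05 ± 0.16 and 9.82 ± 0.21 (SD, n = 8 each), a difference of 0.23 ± 0.085 (SE) with a limma p of 0.015 and an adjusted p of 1.0.

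Inhba encodes the activin beta A subunit, a secreted factor that neurons make after activity. It ran from 7.72 to 8.08 with a median of 7.93 after kainate and from 7.70 to 7.95 with a median of 7.80 in controls. The difference was 0.10 ± 0.047, with a limma p of 0.048 and an adjusted p of 1.0. Kainate was again higher in 7 of 8 pairs, and the highest control was control 1.

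Ptgs2, the inducible cyclooxygenase that makes prostaglandins, ran from 10.45 to 10.75 (median 10.58) after kainate and from 10.36 to 10.68 (median 10.46) in controls. The difference was 0.083 ± 0.057 with a limma p of 0.163, and kainate was higher in 7 of 8 pairs. With the replicate number as a block, 4 members had an unadjusted p under 0.05, beside 6.6% of all genes. The limma p under the block was 0.0047 for Inhba, 0.0078 for Ptgs2, 0.0085 for Npas4 and 0.042 for Egr1, and the adjusted p was 0.750 for each.

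Among the Egr factors, which bind the GC-rich site named above, all 4 had a higher mean after kainate and none passed the test. Egr3 ran from 11.52 to 11.77 (median 11.65) after kainate and from 11.46 to 11.75 (median 11.59) in controls, a difference of 0.082 ± 0.048. Egr2 ran from 7.96 to 8.29 (median 8.09) and from 7.99 to 8.14 (median 8.05), a difference of 0.050 ± 0.040. The Egr2 values in controls lay inside the range of the kainate libraries. Egr4 ran from 9.30 to 10.07 (median 9.79) after kainate and from 9.35 to 10.01 (median 9.76) in controls. Its difference of 0.024 ± 0.115 was small beside the spread within either group. Egr1 differed by 0.115 ± 0.109, and by 0.028 ± 0.081 without control 1.

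Fos, the partner of the Jun proteins in AP-1, ran from 13.18 to 13.99 with a median of 13.67 after kainate and from 12.42 to 13.94 with a median of 13.75 in controls. The control libraries thus held both the lowest value and the higher median. The difference of the means was 0.064 ± 0.189, and without control 1 it was -0.094 ± 0.126. Fosb, which also yields the long-lived deltaFosB protein, ran from 11.16 to 11.70 (median 11.47) and from 10.39 to 11.59 (median 11.44). The Fosb difference was 0.125 ± 0.139, and -0.0050 ± 0.080 without control 1.

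Jun ran from 13.74 to 14.24 (median 14.04) after kainate and from 13.37 to 14.25 (median 14.09) in controls. Junb, a Jun protein with weaker transactivation, ran from 12.51 to 13.12 (median 12.89) and from 11.95 to 13.20 (median 12.80). Atf3, a stress-induced bZIP repressor, ran from 9.15 to 10.34 (median 10.01) and from 8.59 to 10.47 (median 9.95). In these factors the groups covered nearly the same range, except for control 1 at the bottom. Their differences were 0.027 ± 0.115 for Jun, 0.056 ± 0.161 for Junb and 0.0024 ± 0.281 for Atf3.

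Btg2, an antiproliferative p53 target, ran from 11.72 to 12.35 (median 12.19) after kainate and from 11.19 to 12.39 (median 12.12) in controls. Klf4, a zinc-finger factor best known from pluripotent cells, ran from 10.05 to 10.46 (median 10.24) and from 9.62 to 10.46 (median 10.24). Kainate minus control was 0.052 ± 0.163 in Btg2 and 0.054 ± 0.099 in Klf4. In the remaining 18 members the differences ran from -0.058 in Gadd45g to 0.098 in Nr4a1, each smaller than its own SE.

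**Figure D1:**
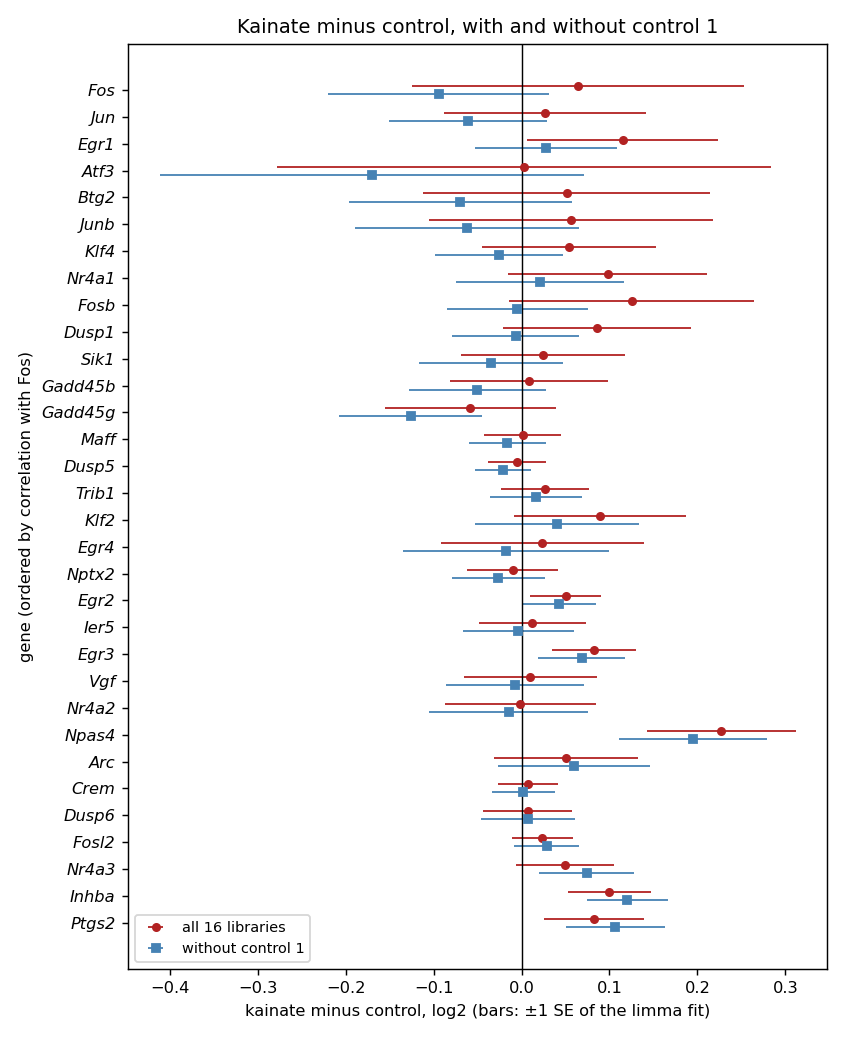
Kainate minus control for each of the 32 members on the log2 scale (x axis, bars ±1 SE of the limma fit), with all 16 libraries (red circles) and without control 1 (blue squares). Genes are ordered by their correlation with Fos. Leaving out control 1 shifts the upper genes to the left, Fos from 0.064 to -0.094, while Npas4, Inhba and Ptgs2 stay to the right of 0.

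In many members, though not in all, the direction of the difference depended on 1 library, control 1. With all libraries, 28 of the 32 members had the higher mean after kainate, where 47.6% of all genes did, and the median difference over the members was 0.038, against -0.0017 over all genes. Without control 1, 14 of 32 were higher, where 46.5% of all genes were, and the median was -0.0058. Leaving out kainate 1 as well, which was also low in Fos, gave 17 of 32 and a median of 0.0057. By role, 8 of 8 bZIP factors were higher with control 1 and 2 without it. For the 9 feedback and stress genes the counts were 7 and 2, and for the 5 effectors 4 and 3. Without control 1 the difference was 0.19 in Npas4, 0.12 in Inhba and 0.11 in Ptgs2.

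Control 1 was low in many of these genes. It lay below the mean of the other 7 controls in 26 of 32 members, where it did so in 52.6% of all genes, with a median distance of -0.20 over the members and -0.0044 over all genes. It was the lowest of the 8 controls in 15 members (20.9% of all genes) and the lowest of all 16 libraries in 14 (11.4% of all genes). The median of all genes in control 1 was 9.60, within the range of 9.59 to 9.62 over the 16 libraries. Of the 20 genes farthest below the other controls in control 1, 6 were members, and of the 100 farthest below, 13 were. Control 1 was known to be low from earlier results of these data, so these counts describe it and are not a test.

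Atf3 lay farthest down, at 8.59 in control 1 against a mean of 9.97 in the other 7 controls, which is 2.60-fold lower on the deposited scale. Fos was 12.42 against 13.69, or 2.41-fold lower, and Fosb 10.39 against 11.44, or 2.06-fold lower. Control 1 minus the other controls was -0.97 in Btg2, -0.94 in Junb and -0.74 in Dusp1, the phosphatase that inactivates MAP kinases. Jun, Egr1, Klf4 and Nr4a1 followed at distances of -0.70, -0.70, -0.64 and -0.62.

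Other members were not low in control 1. Nr4a3 was 0.20 above the mean of the other controls, Ptgs2 0.19 above, Inhba 0.16 above and Arc, the cytoskeletal protein that drives removal of AMPA receptors, 0.079 above. Fosl2 and Dusp6, at 0.037 and 0.0012 above, were close to the other controls.

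**Figure D2:**
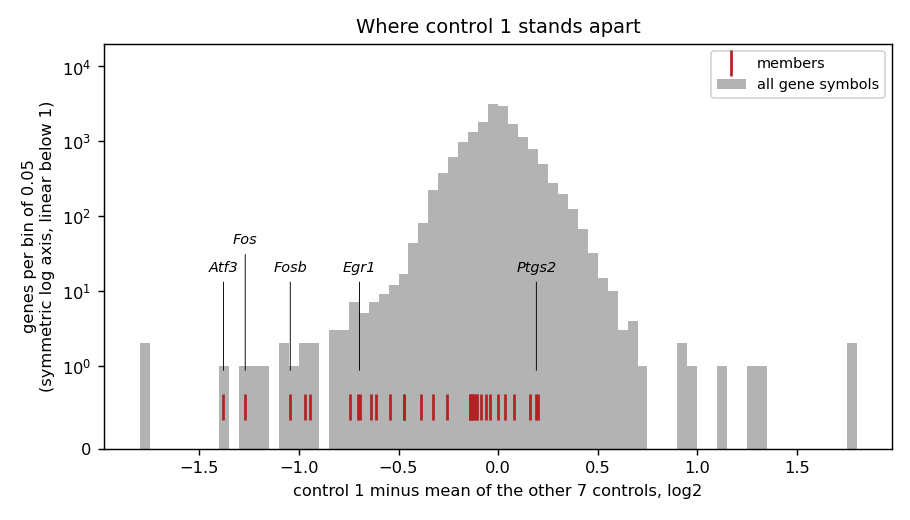
Distribution over all 16602 genes of control 1 minus the mean of the other 7 controls (x axis, log2), with the number of genes per bin on a symmetric log axis (grey) and the 32 members as red ticks. Of the 20 genes farthest to the left 6 are members, with Atf3 at -1.38 and Fos at -1.27, and 6 members lie above 0.

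In bulk tissue, fewer cells of a type and less RNA per cell cannot be told apart. CA1 markers were present, with 8 of 10 in the table and a summed level of 16.58 in control 1, within the 16.53 to 16.76 of the other controls. Dentate markers were detected too, 11 of 12, and their sum in control 1, 13.12, lay within the 13.11 to 13.36 of the other controls. The sum of 9 measured astrocyte markers was 18.06 in control 1, above the 17.88 to 17.97 of the other controls (median over markers 0.082). That of 10 interneuron markers was 15.86, above the 15.61 to 15.85 of the other controls. The median interneuron marker was nevertheless below the other controls in control 1, at -0.071. The sum of the 4 red cell markers in the table, of 7 listed, was 13.41 in control 1, below the 13.43 to 13.99 of the other controls. Control 1 was nevertheless the lowest control in 0 of these 4 markers. The 12 myelin markers had a median 0.18 above the other controls, with a sum of 18.26 inside their range of 17.92 to 18.34. Across the treatment groups, 10 of 11 dentate markers had a higher mean after kainate (median 0.068, with sums from 13.10 to 13.53 after kainate). Of the 12 myelin markers 0 did (median -0.11), where 47.6% of all genes did. Without control 1 the counts were 10 and 2, where 46.5% of all genes were higher. Other lists leaned too, with 8 of 9 cortex markers and 2 of 10 microglia markers higher with all libraries. No dentate or myelin marker passed an adjusted p of 0.05 by limma. At an unadjusted limma p under 0.05 there were 2 dentate markers and 1 myelin marker, beside 1.39% of all genes. With the replicate number as a block there were 4 dentate and 4 myelin markers, beside 6.6% of all genes, and 0 passed an adjusted p. The part of these cell types in the members' values was not tested.

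**Figure D3:**
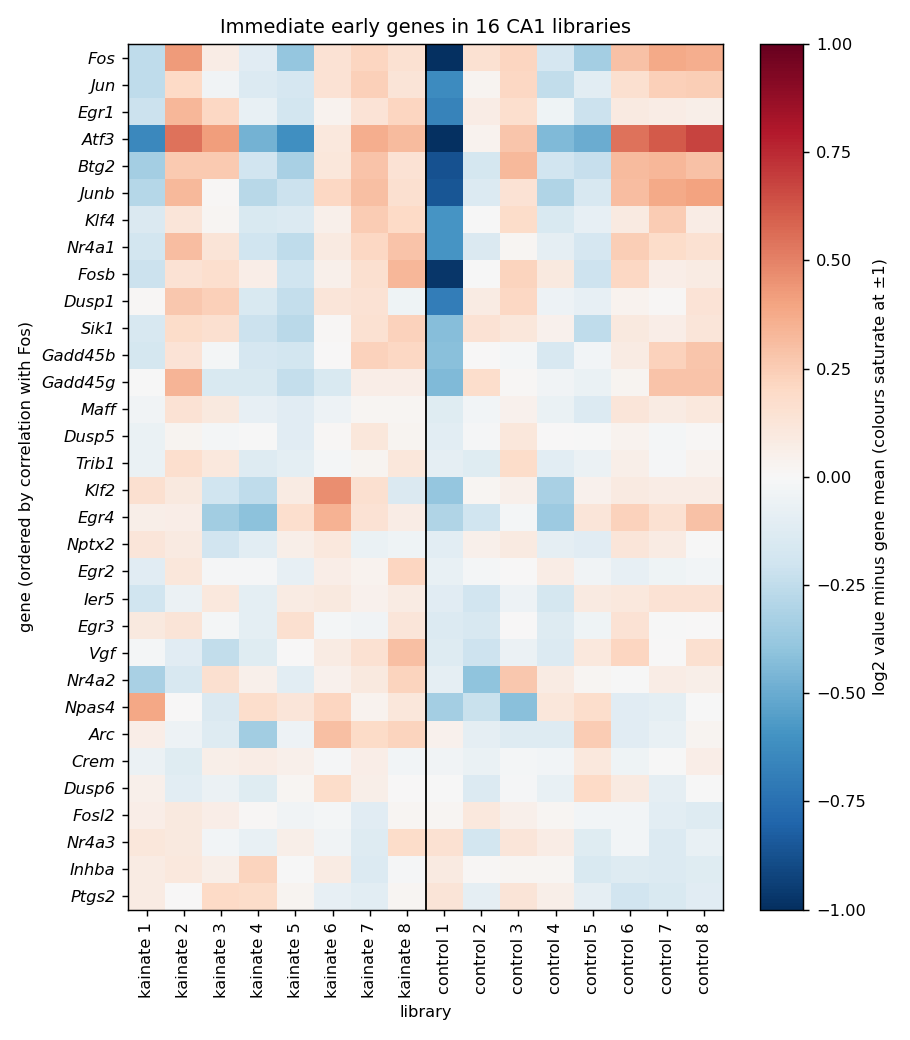
Each member's value in each of the 16 libraries, as the log2 value minus the gene's mean over all libraries (colour, saturating at ±1), with kainate libraries left of the black line and controls right of it. The upper genes, from Fos to Gadd45g, share a blue column at control 1, and Fos, Jun, Egr1, Atf3, Btg2, Junb, Klf4 and Gadd45b lie below their means at replicates 1, 4 and 5 of both groups. Others of the upper genes do not in every such library, such as Fosb at control 4 and kainate 4.

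Within the groups, many members varied together from rat to rat. With group means removed, the median Pearson r over the 496 pairs of members was 0.28 across 16 libraries, against 0.00145 over all 137804901 pairs of genes. An r of at least 0.7, a level set for this description, was reached by 102 pairs (20.6%, against 5.52% of all gene pairs), and an r of -0.7 or lower by 2 (0.403%, against 5.25%). The p-values given for single pairs come from permutation tests with 100000 draws within the groups, adjusted over the 496 pairs, and take no account of the likeness of same-numbered libraries. Without control 1 the median was 0.21 and 73 pairs (14.7%) reached 0.7. All genes of a library share its dissection, its RNA and its sequencing.

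Earlier results of these data had shown a split between replicates 1 to 4 and replicates 5 to 8 of both groups, for which the labels give no reason. With the means of these sets removed as well, the median r over members was 0.20, and 106 pairs (21.4%) reached 0.7, against 3.23% of all gene pairs.

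Jun and Junb formed the closest pair, with r = 0.976 and rho = 0.953 (adjusted permutation p = 0.000472 and 0.000709). Leaving out the 2 libraries farthest from the median of Jun gave r = 0.954, and r was 0.977 within replicates 1 to 4 and 0.993 within replicates 5 to 8. Btg2 and Atf3 had r = 0.965 and rho = 0.915, and Jun and Klf4 had r = 0.958 and rho = 0.906, each with an adjusted permutation p of 0.000472 for r. Without the 2 farthest libraries these were 0.944 and 0.911.

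With Fos, 13 of the 31 other members had an r of at least 0.7, a level that 181 of all other genes reached (1.09%). They were Jun (0.948), Egr1 (0.942), Atf3 (0.941), Btg2 (0.939), Junb (0.936), Klf4 (0.922), Nr4a1 (0.912), Fosb (0.899), Dusp1 (0.891), Sik1 (0.877), Gadd45b (0.872), Gadd45g (0.852) and, nearest the limit, Maff (0.791). Dusp5 lay just outside it at 0.685. The largest adjusted permutation p among the 13 was 0.00291 for r and 0.031 for rho. All 13 also reached 0.7 without control 1, where the lowest was 0.722, and within each set of replicates, where the lowest was 0.744 in replicates 1 to 4 and 0.786 in replicates 5 to 8. Without the 2 libraries farthest from the median, the lowest was 0.649.

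These genes came from several roles. They include AP-1 subunits, Egr1, the nuclear receptor Nr4a1, which is known as Nur77, the MAP kinase phosphatase Dusp1, the CREB coactivator kinase Sik1, and the stress genes Gadd45b and Gadd45g. Fos itself had its 6 lowest values in replicates 1, 4 and 5 of both groups, between 12.42 and 13.45, and 7 other members (Jun, Junb, Egr1, Btg2, Gadd45b, Klf4 and Atf3) had the same 6 libraries lowest. Over all genes, 22 other than Fos had that set of 6. The pattern was seen in the values and is given without a test.

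Several of the best known activity genes did not follow Fos. Npas4 had r = -0.060 (rho = -0.224) and Arc r = -0.088 (rho = -0.106) with Fos, with adjusted permutation p of 0.928 and 0.824 for r. For Npas4, r was -0.558 without control 1. Ptgs2 had r = -0.521 (rho = -0.535) and Inhba r = -0.399 (rho = -0.332) with Fos, with adjusted permutation p of 0.124 and 0.264 for r.

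The lowest r of all pairs was that of Egr4 and Ptgs2, at -0.807 (rho = -0.815, adjusted permutation p = 0.0045 for r). It was -0.731 without the 2 farthest libraries, -0.499 within replicates 1 to 4 and -0.418 within replicates 5 to 8, so the pooled value is larger in size than that within either set. Inhba and Ptgs2 had r = 0.745 (rho = 0.759, adjusted permutation p = 0.011 for r), 0.666 without the 2 farthest libraries, and 0.345 and 0.214 within the sets. Klf2, a zinc-finger factor known from endothelium, and Egr4 had r = 0.853 (rho = 0.835, adjusted permutation p = 0.000689 for r), 0.795 without the 2 farthest libraries, and 0.896 and 0.833 within the sets.

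**Figure D4:**
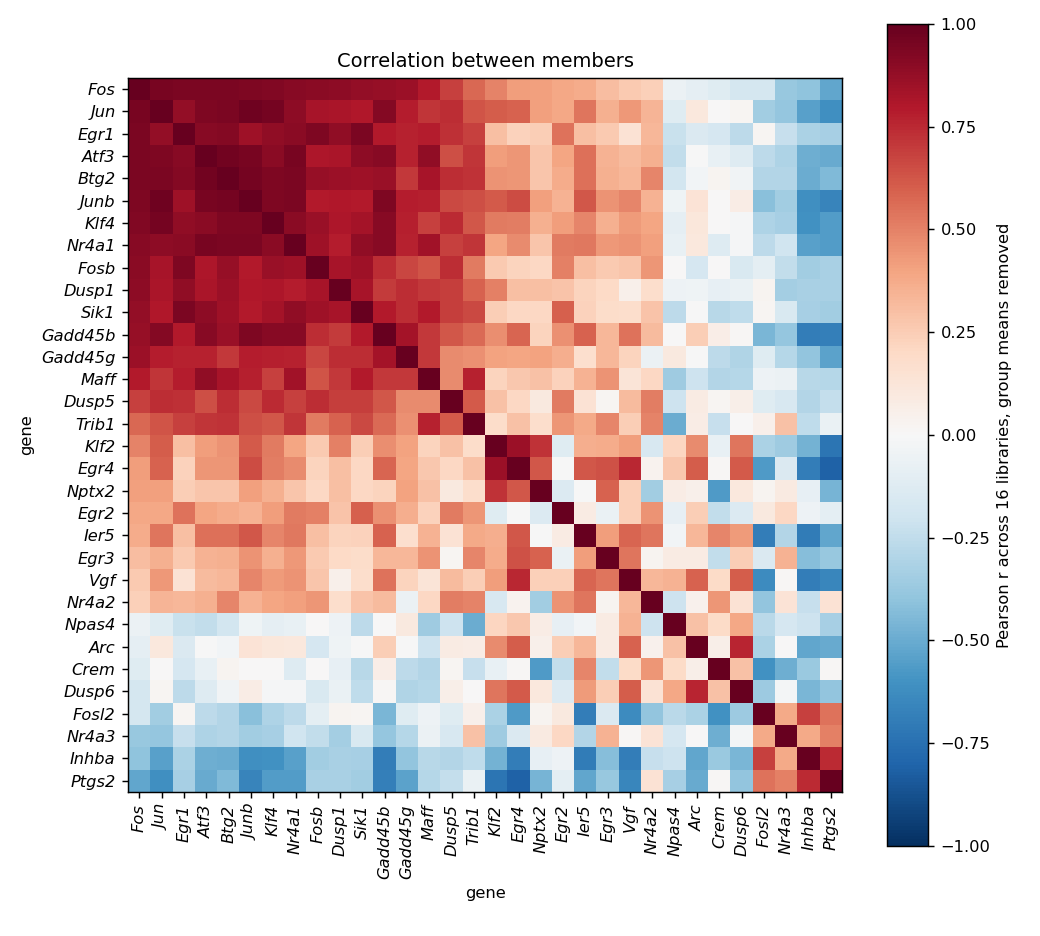
Pearson r between every pair of the 32 members across 16 libraries with group means removed (colour, red positive and blue negative), ordered by r with Fos. The block from Fos to Maff has a median r of 0.858, and Ptgs2 and Inhba in the last rows are blue against it.

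Divided by their r with Fos, the 14 genes with Fos had a median r of 0.858 among themselves and the other 18 members one of 0.058. The division was made from r in these same libraries, control 1 among them, so these medians and the counts that follow only describe it. Control 1 was the lowest control in 13 of the 14 and in 2 of the 18. Of the 14, 13 had the higher mean after kainate with control 1 and 2 without it, with medians of 0.053 and -0.043. Of the 18 others, 15 and 12 had the higher mean, with medians of 0.025 and 0.022.

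The kainate and control libraries of one number varied together in many genes, members among them. The r between the 8 kainate and the 8 control values, matched by number, had a median of 0.623 over members and 0.485 over all genes, and 13 of 32 members reached 0.7, where 24.9% of all genes did. Without replicate 1 the medians were 0.678 and 0.612, and 15 of 32 members and 39.5% of all genes reached 0.7. With all numbers, r was 0.890 in Ptgs2 (rho = 0.833), 0.829 in Atf3 (rho = 0.595), 0.781 in Egr1 (rho = 0.690) and 0.737 in Fos (rho = 0.738). In exact permutation tests adjusted over the 32 members none passed, and the smallest adjusted p was 0.053, for Egr1 and Ptgs2. Without the 2 numbers farthest from the median, r was 0.829 in Ptgs2, 0.612 in Atf3, 0.575 in Egr1 and 0.533 in Fos.

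**Figure D5:**
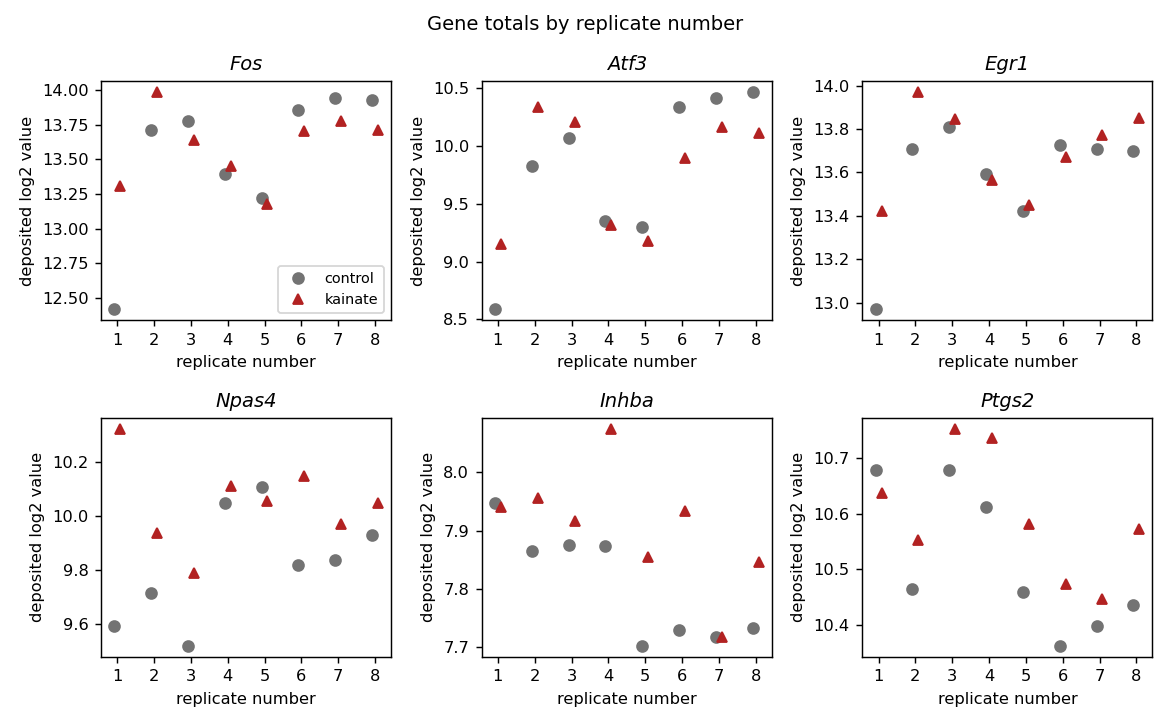
Gene totals (y axis, deposited log2 value) of 6 members by replicate number (x axis) in control (grey circles) and kainate (red triangles) libraries. Fos, Atf3 and Egr1 are low at numbers 1, 4 and 5 in both groups, with control 1 lowest, while Npas4, Inhba and Ptgs2 have the kainate library above the control library at 7 of 8 numbers.

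Members differed in how much they varied among rats. By the SD within groups, Atf3 ranked 49th of 16602 genes at 0.587, Fos 88th at 0.411, Btg2 127th, Junb 131st and Fosb 187th at 0.307. Without control 1 the SD was 0.493 in Atf3 (61st), 0.270 in Fos (266th) and 0.169 in Fosb (1437th), and Btg2 and Junb ranked 263rd and 260th. At the other end of the list, Dusp5 ranked 10874th and Crem 10626th.

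Of the 8 members with several isoforms in the table, Nr4a2, an orphan receptor of dopamine neurons and of memory formation, had the largest difference, in its isoform ENSRNOT00000078001. It ran from 6.25 to 6.97 with a median of 6.60 after kainate and from 6.13 to 6.92 with a median of 6.19 in controls. The kainate library was higher in 8 of 8 pairs, and control 2 was the only control above 6.22. In replicates 2 and 5 the gap was small, at 6.97 against 6.92 and 6.25 against 6.20 in the control. The difference was 0.31 ± 0.127, with a limma p of 0.028 and an adjusted p of 1.0, and with the replicate number as a block p was 0.0030 and the adjusted p 0.797. For the same isoform, the log2 fold change was 0.170 and the adjusted p 0.150 according to the authors' deposited table. The other Nr4a2 isoform, ENSRNOT00000041394, differed by -0.012 ± 0.094. The authors' mean normalized count was 103 for ENSRNOT00000078001 and 2561 for this other isoform. The r between these isoforms was -0.687, and the gene total of Nr4a2 differed by -0.0015 ± 0.086.

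By limma on all 21698 isoforms, 0 of the 44 member isoforms had an adjusted p under 0.05 with or without the block (0% of all isoforms). At an unadjusted p under 0.05 there were 3 (1.5% of all isoforms), and with the replicate block 5 (6.13%). Control 1 minus the other controls was -1.29 and -0.78 in the 2 isoforms of Fosb. Both differed between the groups by 0.126, and their r with Fos was 0.935 and 0.677. The isoforms of Arc (0.0093 and 0.107), Egr3 (0.087 and 0.080), Atf3 (0.0071 and 0.017), Nptx2 (-0.010 and 0.011) and Nr4a1 (0.098 and 0.0029) had limma p of 0.102 or more. Of the 6 isoforms of Crem, a CREB-related factor, ENSRNOT00000074146 differed by -0.033 ± 0.015, its unadjusted limma p being 0.042 and its adjusted p 1.0. The authors' deposited table lists 6 of the 44 member isoforms with an unadjusted p under 0.05, where it does so for 5.66% of all isoforms. It lists 0 of the 44 with an adjusted p under 0.05, where 0.0323% of all isoforms had one. The adjusted p is empty for 7 of the 44 and was given for 16650 of the 21698 isoforms. The 6 isoforms with an unadjusted p under 0.05 belong to Nr4a2, Ptgs2, Npas4, Inhba, Egr1 and Fosb, with log2 fold changes there between 0.126 and 0.210.

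A list of 45 other activity genes, 43 of them measured, was read from the same fit. By limma, 0 passed an adjusted p of 0.05 and 2 an unadjusted one (1.39% of all genes), and 26 of 43 had the higher mean after kainate (47.6% of all genes), with a median of 0.0041. Without control 1, 22 of 43 did. With the replicate number as a block, 2 passed an unadjusted limma p of 0.05 (6.6% of all genes) and 0 an adjusted one. Nptx1, a secreted pentraxin that clusters AMPA receptors, differed by 0.136 ± 0.050, the MAP kinase phosphatase Dusp4 by 0.075 ± 0.034 and the clock gene Per1 by 0.084 ± 0.058. The limma p was 0.015, 0.041 and 0.167 in turn, and the adjusted p 1.0 in each. Control 1 was the lowest control in 16 of the 43, beside 20.9% of all genes.

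Of 34 genes that carry the signal from calcium entry to these promoters, 33 were measured and 27 had the higher mean after kainate, where 47.6% of all genes did, with a median of 0.037. Without control 1 the count was 26, where 46.5% of all genes were higher. None passed an adjusted p of 0.05 by limma, and 2 passed an unadjusted one (1.39% of all genes). With the replicate number as a block, 6 passed an unadjusted limma p of 0.05 (6.6% of all genes) and 0 an adjusted one. Elk1, a partner of SRF, differed by 0.095 ± 0.038, the SRF coactivator Mkl1 by 0.085 ± 0.037 and the CREB coactivator Crtc1 by 0.099 ± 0.048. The limma p was 0.023, 0.035 and 0.053 in turn, and the adjusted p 1.0 in each. In control 1 these genes went both ways, from -0.31 in Map2k2 to 0.34 in Ep300 relative to the other controls.

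Outside the members, the genes most like the mean of the 32 were AC120246.2 (r = 0.954), Ier3 (0.938), Ppp1r15a (0.926), Mafk (0.917) and Zfp36 (0.916), across 16 libraries with group means removed. In that mean each member was centred and not scaled, so members with a large SD, such as Atf3 and Fos, weighed most. Ier3 and Zfp36 also belong to the list of other activity genes above. Zfp36, which encodes an mRNA-destabilizing protein, had a distance of -1.07 from the other controls in control 1, and Ier3 one of -0.74. Their differences between kainate and control were -0.0089 and -0.0029.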

How the data were processed

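RNA-seq of CA1 was analysed from 1 deposited table of 21698 isoforms in 8 kainate and 8 control libraries. Per the submitters' processing notes, the tools included Trim Galore, SAMtools, GATK, RSEM and DESeq2. Details not given in the sources used here include the aligner, the genome build and the transform. For each isoform and library the authors deposited a log2 value. From the values, these have a floor per isoform, so differences of weak isoforms are compressed. The authors also deposited a mean normalized count (a signal over libraries), a log2 fold change, its Wald score, a p-value, an adjusted p-value and a ratio that equals 2 to the power of the fold change. The authors' score and ratio were not used for any result. Read depth per library is unknown, so no counting interval is given.

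Gene totals were the log2 of summed 2-power values per symbol, with no added constant or filter. They were fitted with limma 3.58.1 in R 4.3.3 (mean-variance trend, robust empirical Bayes, two-sided, Benjamini-Hochberg over 16602 genes), after tests on simulated data. Correlations used values with group means removed and two-sided permutation tests. Same-numbered libraries had correlated deviations in all 8 pairs (r from 0.127 to 0.781 across isoforms, above a limit of 0.1), so the replicate number was also fitted as a block. The labels do not say what a number shares, and with the split of replicates 1 to 4 from 5 to 8 removed r ran from -0.349 to 0.667.

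Alternatives were single libraries or replicate sets left out, centred libraries, a filter at a mean normalized count of 100, the isoform with the highest mean, and another variance model. Members and lists were chosen with earlier results of these data known. Genes described by library were the 5 members with the smallest p, the 5 with the largest SD, the 3 lowest in control 1, and those of the 3 closest pairs and the most opposed pair. Nearest genes were the 5 with the highest r with the members' mean, and 3 genes were named per pathway list by p. Promoters followed the closest pairs, with 2 added. In 51 rows of the table the gene name had been turned into a date, and these rows matched no member.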

Additional observations from a re-analysis of the deposited data

Results flagged for a closer look

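In 6 of 64 groups of 8 libraries, 1 library stood apart from the others by Dixon's criterion, which sets its gap to the nearest other library against the range of the group. Chance gives about 1 such group in 20 where the values in a group are normally distributed, which was not tested. The groups here are also not independent of each other. No share over all genes is given here, so the count cannot be set against the rest of the genes. In 5 of the 6 the library was control 1, which was known beforehand to be low, in genes that vary together, so these 5 describe 1 library and are no test of it. It was at 12.42 in Fos, where the other controls ran from 13.22 to 13.94. In Fosb it was at 10.39 against 11.16 to 11.59, in Egr1 at 12.97 against 13.42 to 13.81, in Dusp1 at 11.55 against 12.17 to 12.45, and in Btg2 at 11.19 against 11.83 to 12.39. The sixth case was Arc, where control 5 stood above the rest at 12.30 while the other controls ran from 11.92 to 12.09. The labels record nothing that sets control 1 or control 5 apart.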

How the results depend on the processing

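Over the alternatives, 455 of 502 values were counted as unchanged, and no named member reached an adjusted limma p under 0.05 (smallest 0.237). That count includes fits with the replicate block or another variance model, which cannot change a difference of means when all 16 libraries are kept. It also includes the median difference over members without control 1, which did change sign, from 0.038 to -0.0058. The number of members higher after kainate, 28, ran from 14 to 31 over single libraries left out, with 14 without control 1. It was 17 in replicates 5 to 8 alone, 17 without both libraries of replicate 1, and 17 with the replicate block when replicate 1 was left out. The replicate block changed no adjusted call. The median r over member pairs, 0.28, was 0.164 in replicates 5 to 8 alone, with n = 8.

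Several differences changed sign, all without passing the test. Replicates 5 to 8 alone gave -0.140 in Fos, -0.049 in Jun, -0.116 in Junb, -0.014 in Egr4, -0.123 in Btg2 and -0.290 in Atf3, and replicates 1 to 4 alone gave -0.00087 in Egr2. Without both libraries of replicate 1, with or without the replicate block, the values were -0.054 in Fos, -0.023 in Jun, -0.017 in Junb, -0.024 in Egr4, -0.018 in Btg2, -0.0013 in Klf4 and -0.078 in Atf3. Leaving out single libraries gave ranges of -0.094 to 0.124 in Fos, -0.0050 to 0.167 in Fosb, -0.061 to 0.065 in Jun, -0.062 to 0.117 in Junb, -0.027 to 0.084 in Egr4, -0.070 to 0.103 in Btg2, -0.026 to 0.095 in Klf4 and -0.170 to 0.099 in Atf3. Beyond the libraries left out, the cause was not tested. The unknown depth and the compressed scale limit what can be said of weak isoforms.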
